A study of Mus musculus with 13 samples.

Results

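The genes described here are the mouse chemokines and interleukins, chosen by name alone: every gene whose symbol in the array's probe annotation is Ccl, Cxcl or Il followed by a number and at most 1 letter. The rule took 63 of the 16390 genes measured by a named probe. They comprise 28 chemokines, 31 interleukins and, through the trailing letter, 4 interleukin receptor chains (Il7r, Il9r, Il21r and Il23r). Some carry older names: Cxcl4 is platelet factor 4 (Pf4), Cxcl7 is Ppbp, Il17e is Il25 and Il28 is an interferon lambda. Cxcl3, Il33 and Il34 are annotated under older names on the array and so are not among the 63.

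The series measured total RNA on 13 single-colour Cy5 arrays, 1 per group, and asked how fibroblasts are reprogrammed into induced cardiomyocyte-like cells (iCMs) when the culture medium is defined. GMT iCMs, made by transduction of Gata4, Mef2c and Tbx5, were sorted as GFP-positive cells, with GFP driven by the αMHC promoter of cardiomyocytes, after 2 or 4 weeks in 1 of 3 media: FFV (with FGF2, FGF10 and VEGF), SF (serum-free) or FBS (with serum). GMTMM iCMs, which add Mesp1 and Myocd, came from tail-tip fibroblasts (TTFs) and were grown in FFV or in FBS, and MT iCMs (Mef2c and Tbx5) were grown in FFV. No time or sort is labelled for GMTMM and MT iCMs, and no source cell for MT or GMT iCMs. The other 4 arrays held newborn heart of postnatal day 1 (P1), embryonic heart of day 12 (E12), mouse embryonic fibroblasts (MEFs) and TTFs, and no strain is given.

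There were no replicate cultures or animals. Precision is therefore limited by the number of arrays, and tests of medium rest on the scatter of its effect between 2 and 4 weeks or between types of iCM. By their identifiers the arrays form 3 series, 1 holding the GMT iCMs and E12 heart, 1 the P1 heart and MEFs, and 1 the MT iCMs, GMTMM iCMs and TTFs. In a comparison that crosses series, the array series cannot be told apart from the cell type. Levels are normalised log2 intensities, whose lowest value on these arrays was 5.65, so a level below about 6 is dim and its differences are compressed. Per array, 45 to 59 of the 63 genes lay well above background, meaning brighter than the blank spots by 2 SD. Of the cardiomyocyte markers, GMT iCMs and hearts had 8 or 9 of 9 well above background, with a summed normalised signal of 67946 to 158387. The same sum was 12525 in MT iCMs, 2383 in GMTMM iCMs in FFV, 971 in GMTMM iCMs in FBS, and 594 and 531 in MEFs and TTFs, so these markers were low in the GMTMM iCMs.

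Chemokines are small secreted proteins that direct the migration of leukocytes through G protein-coupled receptors, and interleukins are secreted signals between leukocytes and tissue cells. CXC chemokines that carry an ELR motif before their cysteines attract neutrophils through CXCR2, whereas CC chemokines such as Ccl2 attract monocytes through CCR2. Stimulated fibroblasts secrete several of both kinds, commonly through the transcription factor NF-κB, which binds κB sites in their promoters, and cardiac fibroblasts and resident macrophages are known sources in the heart.

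RefSeq promoter sequences (mouse build GRCm38.p6, the 250 bases before the annotated start) were available for 46 of the 63 genes. The 10-base κB consensus, searched on both strands, occurred in 7 of the 46 (15.2%), against 7.01% of all 27025 promoters: Ccl9, Ccl20, Cxcl1, Cxcl2, Cxcl10, Il6 and Il19. Shown here are the κB-bearing promoters of 4 genes on which the results below turn: Cxcl1, Cxcl2 and Il6 were at least 2-fold higher in MT than in GMT iCMs in FFV, and Ccl9 was not. Ccl20, Cxcl10 and Il19, not shown, were not higher either. Ccl2 was also higher in MT iCMs, but its promoter was not available. A link between κB matches and these differences was not tested. The 4 sequences are written 5′ to 3′ on the gene's strand with the κB match in capitals. The matches begin 71 bases before the start in Cxcl1 (chr5:90890995-90891244, plus strand), 97 in Cxcl2 (chr5:90903649-90903898, plus strand), 44 in Il6 (chr5:30012864-30013113, plus strand) and 35 in Ccl9 (chr11:83578637-83578886, minus strand). In Cxcl1 and Cxcl2 the capitals cover a pair of overlapping matches, 1 on each strand. A match describes the letters only, and binding was not measured.
Cxcl1: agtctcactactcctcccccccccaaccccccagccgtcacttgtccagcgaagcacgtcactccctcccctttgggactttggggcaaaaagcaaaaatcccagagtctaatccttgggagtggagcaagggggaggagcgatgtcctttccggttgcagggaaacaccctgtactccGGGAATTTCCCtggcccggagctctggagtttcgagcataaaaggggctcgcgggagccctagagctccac
Cxcl2: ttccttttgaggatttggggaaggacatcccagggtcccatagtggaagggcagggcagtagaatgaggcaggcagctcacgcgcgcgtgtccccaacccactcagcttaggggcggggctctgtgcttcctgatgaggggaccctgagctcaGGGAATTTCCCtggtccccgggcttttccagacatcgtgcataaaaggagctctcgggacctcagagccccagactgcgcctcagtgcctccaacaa
Il6: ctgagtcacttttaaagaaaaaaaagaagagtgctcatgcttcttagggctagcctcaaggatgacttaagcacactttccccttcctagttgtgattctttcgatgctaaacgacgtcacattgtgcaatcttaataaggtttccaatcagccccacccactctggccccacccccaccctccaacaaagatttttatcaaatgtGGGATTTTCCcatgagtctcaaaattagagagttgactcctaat
Ccl9: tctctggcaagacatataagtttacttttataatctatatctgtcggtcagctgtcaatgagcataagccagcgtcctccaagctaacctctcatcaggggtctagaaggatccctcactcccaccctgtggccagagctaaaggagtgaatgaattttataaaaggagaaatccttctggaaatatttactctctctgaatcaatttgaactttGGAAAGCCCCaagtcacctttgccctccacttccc

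Most of the 63 genes were flat. Of them, 38 lay well above background on all 13 arrays, 23 on some and 2 (Il4 and Il24) on none. The span from the lowest to the highest array had a median of 0.71 on the log2 scale, against 0.75 over all 16390 genes. A span of at least 1 was found for 26 of the 63 (41.3%, against 38.9% of all genes) and of at least 2 for 15 (23.8%, against 12.6%). Of these 15, 14 were chemokines and the other was Il6. Among the 26 wide genes the highest array was the MEFs for 7, GMTMM iCMs in FBS for 6, GMTMM iCMs in FFV for 5, the TTFs for 4, the P1 heart for 2, and GMT iCMs for 2.

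**Figure D1:**
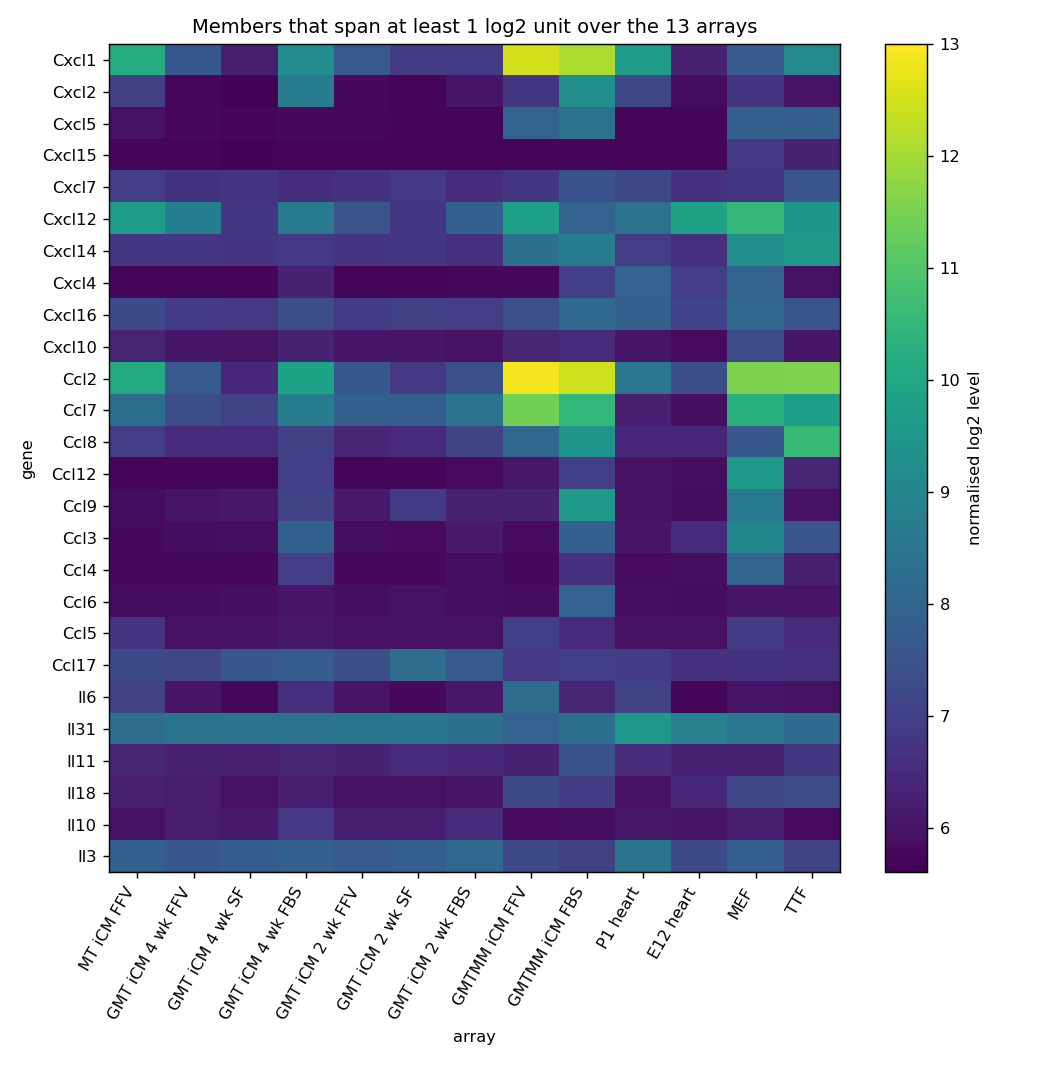
Normalised log2 level (colour) of the 26 chemokine and interleukin genes whose level spans at least 1 log2 unit, by gene (down) and array (across, 1 array per group). Ccl2 and Cxcl1 reach 12.88 and 12.50 in GMTMM iCMs in FFV, and Ccl2 stands at 6.42 to 7.68 in GMT iCMs in FFV and SF.

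Cxcl1, an ELR chemokine that attracts neutrophils, was among the most variable genes. Its log2 level was 10.19 in MT iCMs, 12.50 in GMTMM iCMs in FFV and 12.10 in GMTMM iCMs in FBS. In GMT iCMs at 4 weeks it was 7.64 in FFV, 6.21 in SF and 9.18 in FBS, and at 2 weeks 7.69, 6.87 and 6.92 in the same order of media. It was 9.66 in the P1 heart, 6.34 in the E12 heart, 7.72 in MEFs and 9.07 in TTFs. Both GMTMM arrays lay above every other array, and the MT array lay above all GMT iCMs, hearts and fibroblasts. Cxcl1 averaged 9.36-fold higher in GMTMM iCMs than in TTFs, 5.76-fold higher in MT than in GMT iCMs in FFV, and 9.96-fold higher in the P1 than in the E12 heart.

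Cxcl2, a close relative of Cxcl1 that shares its receptor, had a different order of arrays. Its level was 9.26 in GMTMM iCMs in FBS and 8.75 in GMT iCMs in FBS at 4 weeks, against 5.69 to 7.19 on the other 11 arrays. Both high arrays were grown with serum, but the GMT array in FBS at 2 weeks stood at 6.01. In FFV, Cxcl2 stood at 7.02 in MT iCMs, 6.79 in GMTMM iCMs, and 5.76 (4 weeks) and 5.78 (2 weeks) in GMT iCMs, so that MT iCMs were 2.37-fold above GMT iCMs. GMTMM iCMs in FFV were 5.53-fold below those in FBS. Cxcl5, another ELR chemokine, was bright in GMTMM iCMs and both fibroblasts: 7.95 and 8.37 in GMTMM iCMs in FFV and FBS, 7.84 in MEFs and 7.83 in TTFs, against 5.96 in MT iCMs and 5.69 to 5.79 in GMT iCMs and hearts. Cxcl15, a lung-associated chemokine, stood near the blanks except for 6.86 in MEFs and 6.32 in TTFs.

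Ccl2, the principal attractant of monocytes, spanned the widest range of the 63 genes. Its log2 level was 10.13 in MT iCMs, 12.88 in GMTMM iCMs in FFV and 12.47 in GMTMM iCMs in FBS. GMT iCMs at 4 weeks stood at 7.68 in FFV, 6.42 in SF and 9.90 in FBS, and at 2 weeks at 7.63, 6.82 and 7.41 in the same order of media. It was 8.51 in the P1 heart, 7.37 in the E12 heart, 11.54 in MEFs and 11.57 in TTFs. Every GMT array lay below both fibroblast arrays, while both GMTMM arrays lay above them. Ccl2 averaged 14.9-fold lower in GMT iCMs than in MEFs, 2.16-fold higher in GMTMM iCMs than in TTFs, and 5.57-fold higher in MT than in GMT iCMs in FFV.

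Ccl7, a monocyte attractant encoded near Ccl2, ran at lower levels. It stood at 8.28 in MT iCMs, 11.43 and 10.50 in GMTMM iCMs in FFV and FBS, and 7.04 to 8.70 in GMT iCMs, against 6.23 and 5.91 in the P1 and E12 hearts, 10.29 in MEFs and 9.71 in TTFs. Ccl7 was thus higher in every GMT array than in either heart and lower than in MEFs, on average 3.88-fold higher than in the E12 heart and 5.35-fold lower than in MEFs. Ccl8, which attracts monocytes and eosinophils, stood at 8.07 and 9.43 in GMTMM iCMs in FFV and FBS, against 10.59 in TTFs, its highest level. It was 7.60 in MEFs and 6.39 to 7.14 in MT iCMs, GMT iCMs and hearts. Ccl8 was 3.60-fold lower in GMTMM iCMs than in TTFs. The eotaxin Ccl11, an eosinophil attractant, stood at 6.71 and 6.57 in GMTMM iCMs in FFV and FBS, 6.72 in TTFs, 6.04 in MEFs, and near the blanks or dim (5.73 to 5.79) elsewhere. The Ccl11 levels of GMTMM iCMs and TTFs were close, with no replicate error to set them against.

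**Figure D2:**
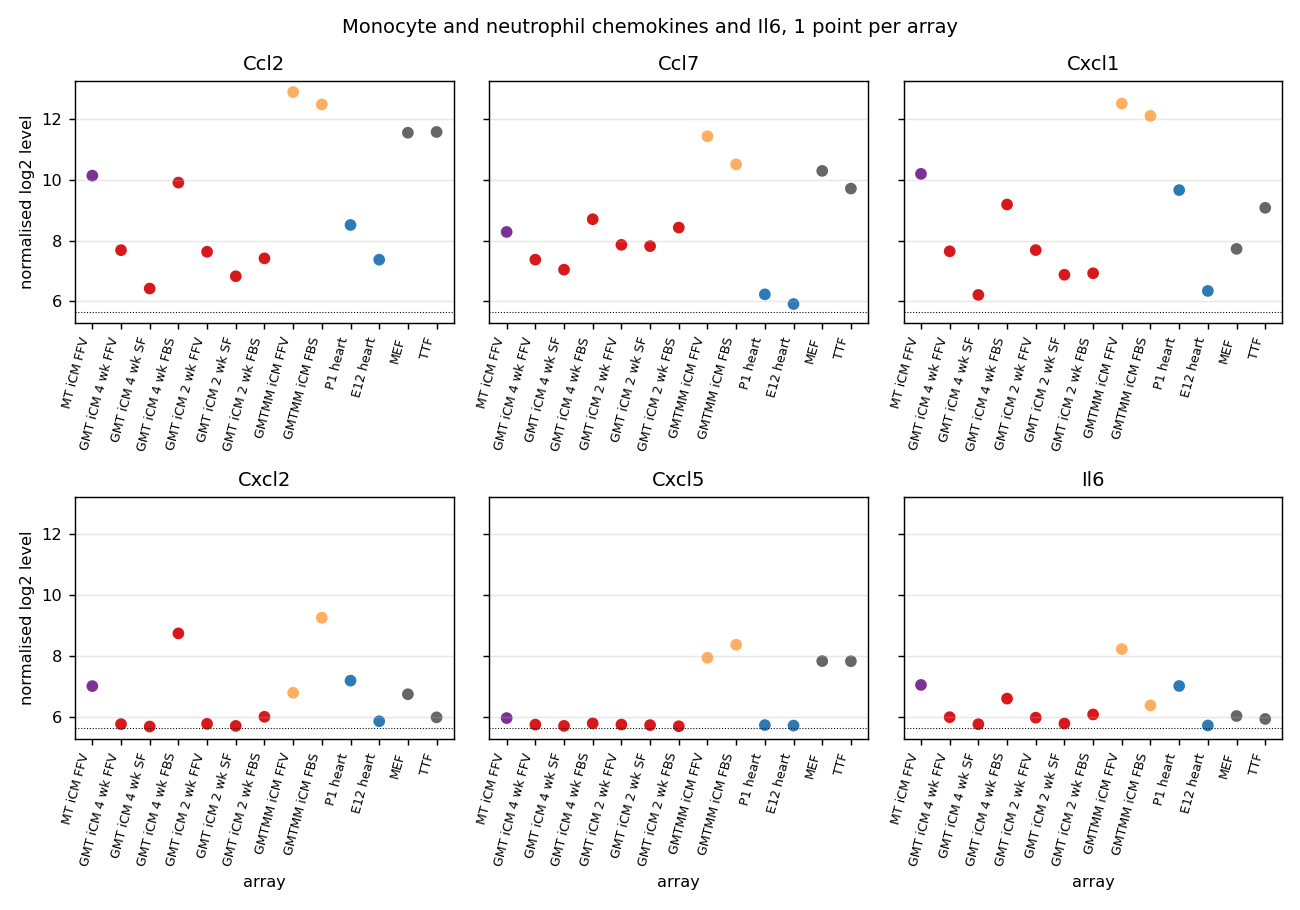
Normalised log2 level of Ccl2, Ccl7, Cxcl1, Cxcl2, Cxcl5 and Il6, 1 point per array (purple MT, red GMT and orange GMTMM iCMs, blue hearts, grey fibroblasts; the dotted line is the lowest level on the arrays, 5.65). The 2 GMTMM arrays are the highest for Ccl2 (12.88 and 12.47), Ccl7 and Cxcl1, and GMT iCMs in FBS at 4 weeks stand apart from the other GMT arrays for Ccl2 (9.90), Cxcl1 (9.18) and Cxcl2 (8.75).

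The macrophage inflammatory CC chemokines, known from activated macrophages, are Ccl3, Ccl4, Ccl5, Ccl6 and Ccl9. Ccl3 and Ccl4 were highest on the same 4 arrays in the same order, and the others had other orders. Ccl3 (MIP-1α) stood at 7.90 in GMT iCMs in FBS at 4 weeks, 7.86 in GMTMM iCMs in FBS, 8.99 in MEFs and 7.54 in TTFs, and at 5.78 to 6.48 elsewhere. Ccl4 (MIP-1β) stood at 6.95, 6.65, 7.97 and 6.23 on the same 4 arrays, against 5.75 to 5.87 on the rest. The GMT array in FBS at 2 weeks was thus not high for either. Ccl9, a relative of Ccl3 found in mouse, stood at 9.57 in GMTMM iCMs in FBS, 7.07 in GMT iCMs in FBS at 4 weeks and 6.92 in GMT iCMs in SF at 2 weeks, against 8.63 in MEFs and 5.84 to 6.30 elsewhere.

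Ccl12, a mouse monocyte attractant related to Ccl2, stood at 6.98 in GMT iCMs in FBS at 4 weeks and 6.97 in GMTMM iCMs in FBS, against 9.61 in MEFs and 5.69 to 6.37 elsewhere. Ccl6 was high on 1 array, GMTMM iCMs in FBS, at 7.92, against 5.84 to 6.05 on the other 12. Cxcl4 (Pf4), best known from platelets and megakaryocytes, stood at 6.96 in GMTMM iCMs in FBS and 6.33 in GMT iCMs in FBS at 4 weeks, against 7.92 in the P1 heart, 6.96 in the E12 heart and 7.96 in MEFs. On the other 8 arrays Cxcl4 lay between 5.69 and 5.94.

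Markers of macrophages were measured on the same arrays. Of 12 markers, 11 or 12 were well above background on every array, and their summed normalised signal was 3116 in GMT iCMs in FBS at 4 weeks and 6889 in GMTMM iCMs in FBS, against 15286 in MEFs and 5379 in TTFs. It was 917 to 1254 on the other GMT arrays, 937 in GMTMM iCMs in FFV, 924 in MT iCMs, 1610 in the P1 heart and 1254 in the E12 heart. The complement gene C1qa had a log2 level of 5.76 in MT iCMs, 5.81 in GMTMM iCMs in FFV, 9.46 in GMTMM iCMs in FBS and 9.27 in GMT iCMs in FBS at 4 weeks, against 11.60 in MEFs. In bulk RNA, fewer cells of a type and less RNA per cell cannot be told apart, and the part of macrophages in these chemokine levels was not tested. TTFs, with a marker sum of 5379, were among the arrays high in Ccl3 and Ccl4 but had low Ccl9 (5.97), Ccl6 (6.02) and Cxcl4 (5.94). MEFs, with the highest sum, had the highest Ccl3, Ccl4, Ccl12 and Cxcl4 of the 13 arrays, and a Ccl6 level of 6.05. With the local surround of each spot subtracted, Ccl3 was no longer highest in MEFs and was lower there than in TTFs and MT iCMs. Cxcl1, Ccl2 and Ccl7 were at their highest in GMTMM iCMs in FFV, where the marker sum was 937.

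**Figure D3:**
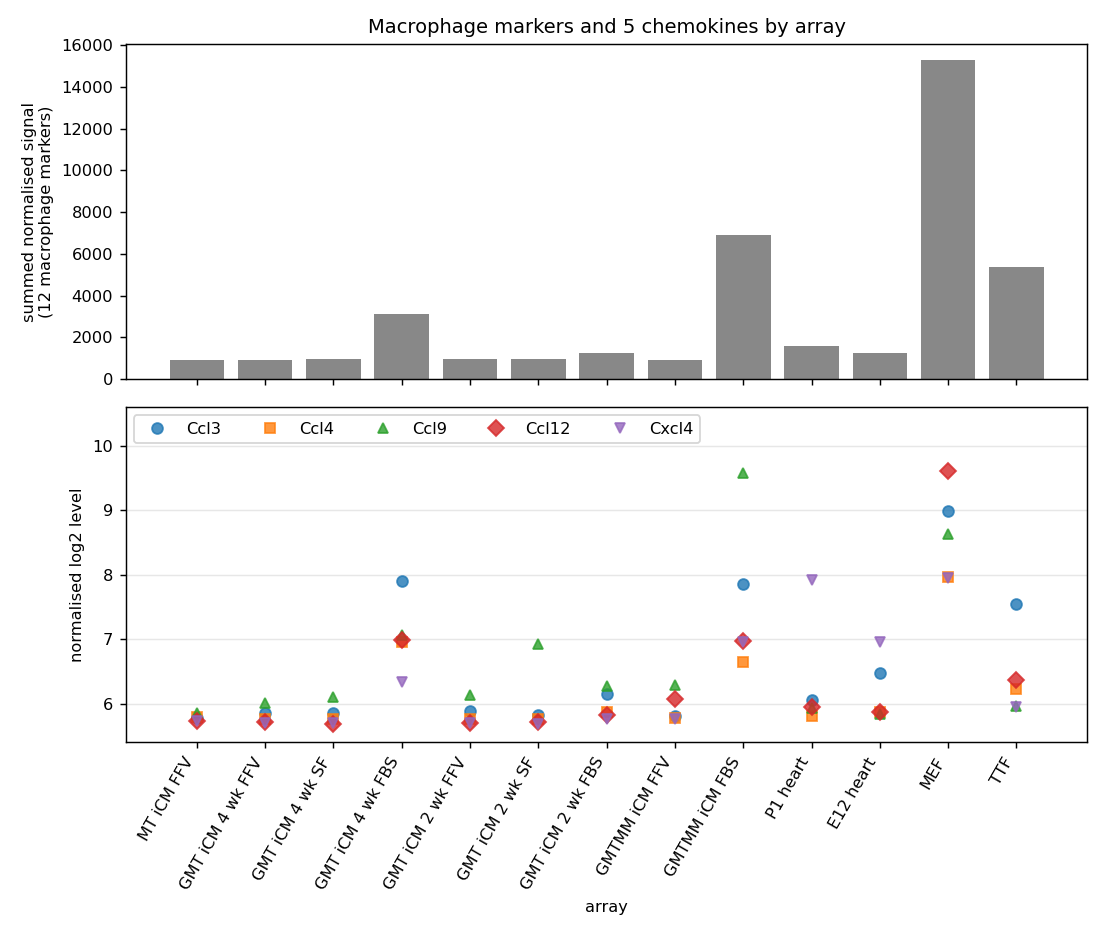
Summed normalised signal of 12 macrophage markers (bars, top) and normalised log2 level of 5 chemokines (points, bottom), 1 array per group. The sum is 3116 in GMT iCMs in FBS at 4 weeks, 6889 in GMTMM iCMs in FBS and 15286 in MEFs, arrays on which Ccl3 stands at 7.90, 7.86 and 8.99. In TTFs the sum is 5379. With the local surround of each spot subtracted, MEFs were no longer the highest array for Ccl3.

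The other CXC chemokines had other orders of arrays. Cxcl12 (SDF-1), which retains and guides progenitor cells through CXCR4, stood at 9.66 in MT iCMs, 9.79 in GMTMM iCMs in FFV and 7.92 in GMTMM iCMs in FBS. GMT iCMs at 4 weeks stood at 8.80 in FFV, 6.81 in SF and 8.68 in FBS, and at 2 weeks at 7.50, 6.76 and 7.91. It was 8.37 in the P1 heart, 9.87 in the E12 heart, 10.54 in MEFs and 9.47 in TTFs. All GMT arrays lay below MEFs and the E12 heart, on average 6.95-fold and 4.37-fold. Its receptor Cxcr4 varied little, from 6.32 to 7.04, and the scavenging receptor Ackr3, which clears Cxcl12, from 7.18 in GMT iCMs in FFV at 4 weeks to 10.01 in the E12 heart.

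Cxcl14, a chemokine of epithelia and fibroblasts, was 8.32 and 8.71 in GMTMM iCMs in FFV and FBS, 9.27 in MEFs and 9.62 in TTFs, against 6.77 in MT iCMs and 6.63 to 6.95 in GMT iCMs and hearts. It was 5.73-fold lower in GMT iCMs than in MEFs. Cxcl16, the membrane-bound ligand of CXCR6, ran from 6.83 to 8.14 with its highest level in GMTMM iCMs in FBS. Its second, dimmer probe ran from 5.75 to 6.22. Of the CXCR3 ligands, which interferon induces, Cxcl10 reached 7.29 in MEFs and ran from 5.82 to 6.49 elsewhere. Ccl5, a T cell and monocyte attractant, stood at 6.71 in MT iCMs, 6.97 and 6.48 in GMTMM iCMs in FFV and FBS, 6.88 in MEFs and 6.50 in TTFs, against 5.92 to 6.07 in GMT iCMs and hearts. Ccl17, a T cell attractant, went the other way, with 7.16 to 8.23 in GMT iCMs and 7.23 in MT iCMs, against 6.82 and 6.97 in GMTMM iCMs and 6.62 to 6.89 in hearts and fibroblasts.

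Il6, a cytokine that signals through gp130, was the most variable interleukin. Its level was 7.05 in MT iCMs and 8.23 in GMTMM iCMs in FFV, but 6.38 in GMTMM iCMs in FBS. It was 5.76 to 6.60 in GMT iCMs, 7.02 in the P1 heart, 5.72 and near the blanks in the E12 heart, 6.03 in MEFs and 5.93 in TTFs. Il6 was 3.61-fold higher in GMTMM iCMs in FFV than in FBS, 2.10-fold higher in MT than in GMT iCMs in FFV, and at least 2.44-fold higher in the P1 than in the E12 heart. Il11, a gp130 cytokine linked to fibrosis, was 7.48 in GMTMM iCMs in FBS and 6.28 to 6.80 on the other 12 arrays.

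Of the remaining interleukins, Il3, Il18 and Il31 spanned the widest ranges (1.43, 1.41 and 1.59). Il18, of the interleukin-1 family, was 7.23 and 6.90 in GMTMM iCMs in FFV and FBS, 7.19 in MEFs and 7.34 in TTFs, against 5.93 to 6.46 elsewhere, and Il1b ran from 5.96 to 6.66. Il31, a cytokine of T cells, was highest in the P1 heart at 9.54 and ran from 7.94 to 8.82 elsewhere. Il3, a growth factor of blood cells, was likewise highest in the P1 heart, at 8.43, with at most 8.09 elsewhere. Genes of the common gamma chain, interleukin-12 and interleukin-17 families and the receptor chains each spanned under 1 log2 unit: 0 of 6, 0 of 3, 0 of 6 and 0 of 4 reached it.

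GMT iCMs were compared with MEFs and hearts to place them against fibroblasts and cardiac tissue. Against MEFs, 11 of the 63 genes (17.5%) were lower by 2-fold or more in all 6 GMT arrays and 0 were higher by as much, where 1.87% of all genes were higher and 2.78% lower. The 11 were Ccl2, Ccl3, Ccl4, Ccl7, Ccl9, Ccl12, Cxcl4, Cxcl5, Cxcl12, Cxcl14 and Cxcl15, all chemokines. The median difference was -0.05 over the 63 genes and 0.01 over all genes. With the local surround of each spot subtracted, the Ccl3 difference turned to 0.28 and Ccl4 and Cxcl15 were no longer 2-fold lower. Ccl4 (mean difference -1.99) was also no longer 2-fold lower in all 6 arrays with median scaling, and its call was kept in 4 of 6 settings. On the same arrays all 8 fibroblast markers and 7 of 12 macrophage markers were at least 2-fold lower in GMT iCMs. Of 17 interferon response genes 6 were lower and 0 higher, with a median difference of -1.10 over the list. The part of these 3 lists in the chemokine differences was not tested. The 6 differences share the MEF array.

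Against the E12 heart, Ccl7 was higher and Cxcl12 lower, where 3.04% of all genes were higher and 3.51% lower. Against the P1 heart 0 of the 63 genes were higher and 2 lower, where 2.80% of all genes were higher and 3.90% lower. Those lower than in the P1 heart were Il31 (2.17-fold) and Cxcl4, which was well above background on 1 of the 6 GMT arrays and for which no fold is given. The direction over all genes depends on scaling: with median scaling, 67.5% in place of 46.5% of the genes apart from the E12 heart were higher in GMT iCMs, and 73.6% in place of 41.8% of those apart from the P1 heart. Cxcl12 against the E12 heart (-1.66) and Il31 against the P1 heart (-0.50) were then no longer 2-fold apart in all 6 arrays. Both calls were also lost with a floor, with the local surround subtracted and in the deposited value table, and were kept in 2 of 6 settings. Ccl7 was no longer 2-fold higher than in the E12 heart with the local surround subtracted. Of 7 endothelial markers, 5 were lower than in the E12 heart and 5 lower than in the P1 heart. Of 9 cardiomyocyte markers, 5 were lower than in the E12 heart and 6 lower than in the P1 heart. Of 8 fibroblast markers, 4 were lower than in the E12 heart and 5 lower than in the P1 heart. In addition, 1 of 6 mast cell markers was lower than in the E12 heart, and 2 of 6 neutrophil markers lower than in the P1 heart. The part of these cell type markers was not tested. Hearts are tissue and GMT iCMs were sorted cells in culture, so sort, culture and cell type cannot be told apart.

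GMTMM iCMs were set against TTFs, their cells of origin, and the media within GMTMM against each other. In both GMTMM arrays Cxcl1 was higher and Ccl8 lower than in TTFs, where 0.946% of all genes were higher and 0.830% lower. Of the genes of the NF-κB list, Nfkbia, the inhibitor that NF-κB itself induces, was 11.4-fold and its relative Nfkbiz 4.44-fold higher, and the other 23 of 25 were not 2-fold apart in both arrays. Of 8 fibroblast markers 2 were lower, and their part was not tested.

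In GMTMM iCMs in FFV against FBS, 7 of the 63 genes were lower by 2-fold or more and 2 higher, where 1.68% of all genes were higher and 1.27% lower. Higher were Cxcl12 (3.65-fold) and Il6 (3.61-fold). Lower were Ccl9 (9.70-fold), Cxcl2 (5.53-fold), Ccl6 (4.18-fold), Ccl3 (4.14-fold), Ccl8 (2.57-fold), Cxcl4 (2.30-fold) and Il11 (2.20-fold). The macrophage marker sum was 937 in FFV and 6889 in FBS, and its part in these differences was not tested. This is 1 array against 1, and with the local surround subtracted Ccl3, Ccl6, Cxcl4 and Il11 were no longer 2-fold apart.

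MT iCMs in FFV were compared with GMT iCMs in the same medium, which also received Gata4. The arrays belong to different series, and no time, sort or source cell is labelled for MT iCMs. Leaving out Gata4 therefore cannot be told apart from array series, time, sort or source cell. At least 2-fold higher than in both GMT arrays were Ccl2, Cxcl1, Cxcl2 and Il6, and 0 of the 63 genes were lower, where 2.58% of all genes were higher and 1.81% lower. Of 25 genes of the NF-κB list 2 were higher and 0 lower, Nfkbia (3.53-fold) and the receptor Tlr2 (4.02-fold), with a median difference of 0.08 over the list. Of 9 genes around gp130 1 was higher and 0 lower, Osmr, the oncostatin M receptor (2.97-fold). Of 17 interferon response genes 3 were higher and 0 lower (Irf1, Gbp2 and Bst2), with a median difference of 0.18 over the list. Of 9 CC chemokine receptors 0 were higher and 1 lower, Ccr6. Of 9 cardiomyocyte markers 7 were lower, with a sum of 12525 in MT iCMs, against 97937 and 88671 in GMT iCMs at 4 and 2 weeks. Summed fibroblast markers were 26891 in MT iCMs, against 11281 and 4971 in GMT iCMs at 4 and 2 weeks, with 4 of 8 higher and all 8 well above background throughout. The part of these lists in the chemokine differences was not tested. With the local surround subtracted, Cxcl2 and Il6 were no longer 2-fold higher.

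Against GMTMM iCMs in FFV, 0 of the 63 genes were higher and 7 lower in MT iCMs, where 2.32% of all genes were higher and 2.43% lower: Ccl7 (8.85-fold), Ccl2 (6.72-fold), Cxcl1 (4.97-fold), Cxcl5 (3.95-fold), Cxcl14 (2.93-fold), Il6 (2.27-fold) and Ccl8 (2.19-fold). Against MEFs, Cxcl1 (5.53-fold) and Il6 (2.03-fold) were higher in MT iCMs and 10 genes were lower, where 4.47% of all genes were higher and 4.19% lower. They were Ccl2, Ccl3, Ccl4, Ccl7, Ccl9, Ccl12, Cxcl4, Cxcl5, Cxcl14 and Cxcl15, and the comparison shares its MEF array with that of GMT iCMs. Ccl12 was at least 14.3-fold and Cxcl4 at least 4.53-fold lower, bounds because the MT signal lay near the blanks, and Ccl3 turned to 0.27 with the local surround subtracted. That setting also ended the calls of Ccl2, Ccl4, Cxcl5, Cxcl15 and Il6 against MEFs, and of Ccl8 and Il6 against GMTMM iCMs. Against MEFs, 10 of 12 macrophage markers were lower in MT iCMs, with sums of 924 in MT iCMs and 15286 in MEFs, and 6 of 8 fibroblast markers were lower and 1 higher, with sums of 26891 and 66749. Against GMTMM iCMs in FFV, 4 of 8 fibroblast markers were lower in MT iCMs and 1 higher, with sums of 26891 and 37084, and 0 of 12 macrophage markers were 2-fold apart. Of 17 interferon response genes 8 were lower in MT iCMs than in MEFs and 0 higher. The part of these markers and genes was not tested.

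The P1 heart was compared with the E12 heart across array series. Cxcl1 (9.96-fold), Cxcl2 (2.52-fold), Il6 (at least 2.44-fold), Il3 (2.32-fold) and Ccl2 (2.21-fold) were higher and Cxcl12 (2.84-fold) lower in the P1 heart, where 4.36% of all genes were higher and 4.06% lower. Ccl2 (0.81) and Il3 (0.86) were no longer 2-fold apart with median scaling, nor Ccl2, Cxcl2 and Il6 with the local surround subtracted. Of 6 neutrophil markers 2 were higher, S100a9 (5.65-fold) and S100a8 (3.40-fold). The neutrophil sum was 1067 in the P1 heart and 415 in the E12 heart, with 5 and 6 of 6 well above background. Also higher were 2 of 12 macrophage, 3 of 7 endothelial and 1 of 6 mast cell markers. Of 8 fibroblast markers 3 were higher and 1 lower, and of 9 cardiomyocyte markers 3 were higher and 1 lower. Of 25 genes of the NF-κB list 2 were higher, Nfkbia and Sod2. The part of these lists in the chemokine differences between the hearts was not tested.

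MEFs were compared with TTFs, again across array series. Ccl12 (9.48-fold), Ccl9 (6.33-fold), Cxcl4 (4.03-fold), Ccl4 (3.34-fold), Ccl3 (2.74-fold), Cxcl10 (2.35-fold) and Cxcl12 (2.09-fold) were higher in MEFs, and Ccl8 (7.99-fold) and Cxcl1 (2.55-fold) lower, where 2.63% of all genes were higher and 2.44% lower. Ccl3 turned to -1.45 with the local surround subtracted, where Ccl4, Cxcl1, Cxcl10 and Cxcl12 were no longer 2-fold apart. Over all genes the share of higher calls was 51.9%, and 34.4% with median scaling, under which Cxcl12 (0.81) was no longer 2-fold apart. The Cxcl12 call was kept in 2 of 6 settings, being lost also with a floor and in the deposited value table. Summed macrophage markers were 15286 in MEFs and 5379 in TTFs. Of 17 interferon response genes 6 were higher in MEFs and 0 lower, with a median difference of 0.70 over the list. The part of either list was not tested.

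FFV and FBS were tested in GMT iCMs over both times, to ask what the defined medium changes, in a limma fit over all genes with Benjamini-Hochberg adjustment. Of 52 genes of the family bright enough to test, 1 rose and 2 fell in FFV (5.77%), where 4.14% of all 15035 genes tested were called, 1.78% higher and 2.36% lower. Il17f, a cytokine of T helper cells, rose by 0.32 ± 0.04 (log2 difference ± SE, adjusted p = 0.0178), with levels of 6.21 and 6.22 in FFV at 4 and 2 weeks, against 5.90 and 5.89 in FBS. Ccl8 fell by 0.63 ± 0.09 (adjusted p = 0.0249), with 6.49 and 6.39 in FFV, against 6.99 and 7.14 in FBS. Il10, an anti-inflammatory cytokine, fell by 0.51 ± 0.09 (adjusted p = 0.0363), with 6.18 and 6.17 in FFV, against 6.82 and 6.55 in FBS. The groups did not overlap for any of the 3, but these were picked by this test, so the separation adds no support. The share over all genes was not counted. All 3 calls were lost with a floor on blank-subtracted signal, with the local surround subtracted, in the deposited value table or without a trend. Macrophage markers summed to 917 and 965 in FFV, against 3116 and 1254 in FBS, with 11 and 12 of 12 well above background. The fit called 0 of the 12. Mast cell markers summed to 376 and 362 in FFV, against 670 and 514 in FBS, with 4 of 6 well above background. Of 4 mast cell markers tested, 3 fell (Cma1, Kit and Mcpt4). Of the other lists, 1 of 4 dendritic cell markers (Itgax) and 1 of 8 fibroblast markers (Thy1) fell. Of 9 cardiomyocyte markers 3 rose (Actn2, Tnni3 and Ttn). The part of these lists was not tested.

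The larger FFV differences in GMT iCMs did not pass. Cxcl2 differed by -2.98 at 4 weeks and -0.23 at 2 weeks, Ccl3 by -2.05 and -0.27, and Ccl2 by -2.22 and 0.22. Cxcl1 differed by -1.54 and 0.76 in the same order. At 4 weeks the FBS array was above the FFV array for all 4 genes, and at 2 weeks it was not for Ccl2 and Cxcl1. Ccl7 differed by -1.33 and -0.57 and did not pass either (adjusted p = 0.0856 in limma). Without adjustment, 14 of the 52 genes of the family had a p under 0.05 in limma, where 3367 of all 15035 genes did.

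**Figure D4:**
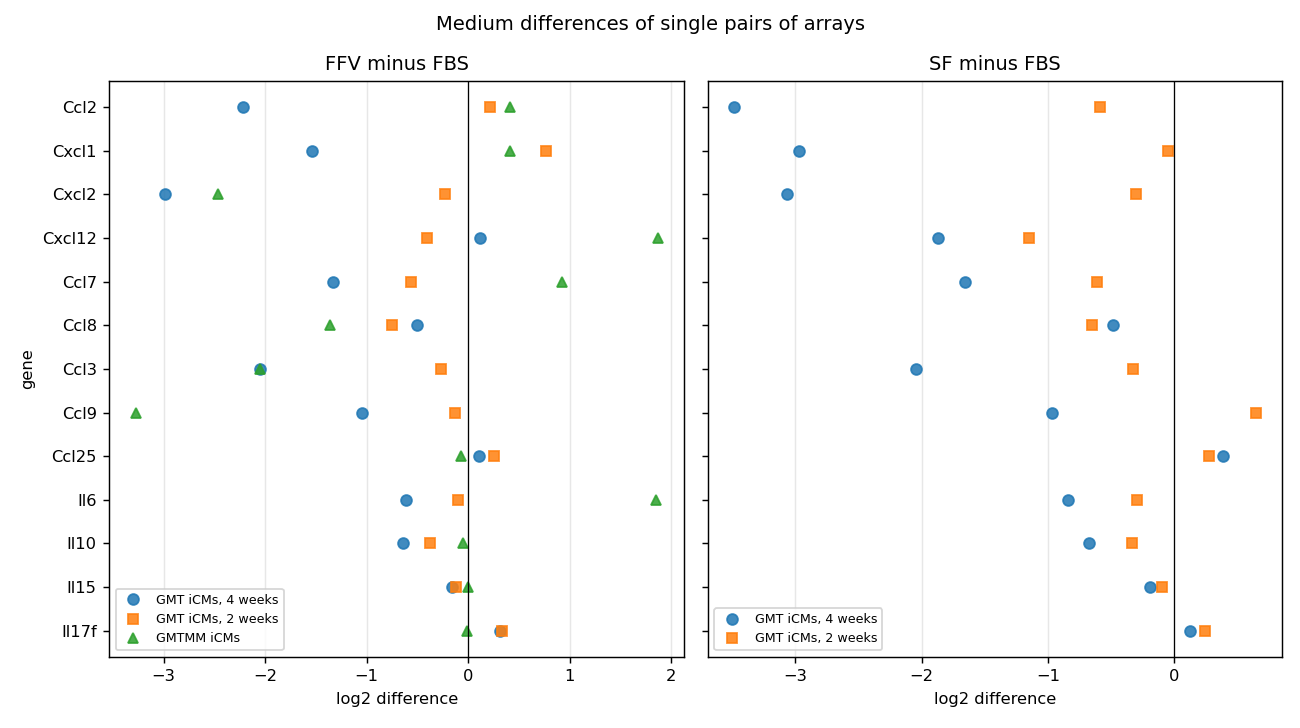
Log2 difference of single pairs of arrays, FFV minus FBS (left) and SF minus FBS (right), for 13 genes, with circles for GMT iCMs at 4 weeks, squares at 2 weeks and triangles for GMTMM iCMs. Cxcl2 differs by -2.98 at 4 weeks and -0.23 at 2 weeks in FFV against FBS, and Cxcl12 by -1.87 and -1.15 in SF against FBS.

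Serum-free medium without the factors was tested against FBS in the same fit. In SF against FBS 2 of 52 rose and 6 fell (15.4%), where 11.0% of all genes were called, 5.05% higher and 5.97% lower. Cxcl12 fell by 1.51 ± 0.27 (adjusted p = 0.0238), with 6.81 and 6.76 in SF at 4 and 2 weeks, against 8.68 and 7.91 in FBS. Ccl7 fell by 1.14 ± 0.24 (adjusted p = 0.0356), with 7.04 and 7.81 in SF, against 8.70 and 8.43 in FBS. Il6 fell by 0.57 ± 0.13 (adjusted p = 0.0396), with 5.76 and 5.79 in SF, against 6.60 and 6.08 in FBS. The groups did not overlap for these 3 genes, but they were again picked by the test, so this adds no support. The share over all genes was not counted.

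The other SF calls were smaller. Ccl8 fell by 0.57 ± 0.09 (adjusted p = 0.0184), Il10 fell by 0.51 ± 0.09 (0.0235) and Il15, which sustains natural killer and memory T cells, fell by 0.15 ± 0.03 (0.0372). Ccl25, a thymic and gut chemokine, rose by 0.33 ± 0.08 (0.0441) and Il17f rose by 0.18 ± 0.04 (0.0425). Ccl2 had the largest fitted difference, -2.04 ± 0.63, and did not pass (adjusted p = 0.0902). Fibroblast markers moved with these falls, 4 of 8 falling in SF, and their sum was 2450 and 2707 in SF at 4 and 2 weeks, against 7926 and 4466 in FBS. Of 12 macrophage markers 2 fell (C1qa and Cd14), and the sums were 948 and 968 in SF, against 3116 and 1254 in FBS. Of 4 mast cell markers tested, 3 fell (Cma1, Kit and Mcpt4), and the sums were 357 and 358 in SF, against 670 and 514 in FBS. Of 4 T cell markers tested, 2 rose (Cd3d and Cd8a), and the sums were 391 and 362 in SF, against 307 and 316 in FBS. The part of these cell types in the results was not tested, and the same 4 settings left 0 of the 8 calls.

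Adding the 3 factors to serum-free medium gave 0 calls among the 52 genes in limma, 4 of them at an unadjusted p under 0.05, where 0% of all genes were called and 1429 had such a p. Cxcl12 had a log2 difference of 1.36 ± 0.27 for FFV minus SF (unadjusted p 0.0020, adjusted p = 0.258 in limma), with 8.80 and 7.50 in FFV at 4 and 2 weeks, against 6.81 and 6.76 in SF. Time gave 0 calls too, 2 of the 52 at an unadjusted p under 0.05, where 0% of all genes were called and 1322 had such a p. For 4 minus 2 weeks Cxcl12 differed by 0.71 ± 0.22 (adjusted p = 0.550 in limma). In FBS alone, the 4-week array was higher than the 2-week array by 2.74 for Cxcl2, 2.49 for Ccl2, 2.26 for Cxcl1 and 1.76 for Ccl3.

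Over all 3 settings in which both media were used (GMT at 4 weeks, GMT at 2 weeks, GMTMM), FFV against FBS gave 0 calls among 57 genes in limma, where 0.0394% of all genes were called, 0.0131% higher and 0.0262% lower. Without adjustment, 15 of the 57 genes had a p under 0.05, where 1635 of all 15245 genes did. Among the 15 were Ccl8 (-0.87 ± 0.17, adjusted p = 0.216), Cxcl2 (-1.89 ± 0.56, 0.357) and Ccl3 (-1.46 ± 0.38, 0.315). Each of these 3 was lower in FFV in 3 of 3 pairs, but they were taken from the genes with a low p, so this adds no support. The share of such genes over all genes was not counted. An interaction term, added after seeing the data, called the FFV effect different in GMTMM and GMT iCMs for 12 of the 57 genes, where 9.63% of all genes were called. The widest such gaps were those of Ccl9 (-3.28 in GMTMM and -0.59 in GMT iCMs), Il6 (1.85 and -0.36) and Cxcl12 (1.87 and -0.14).

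Receptors and pathway genes were read from the same GMT medium tests. In FFV against FBS 4.14% of all genes were called, 1.78% higher and 2.36% lower. In FFV against FBS, 1 of 5 CC chemokine receptors fell, Ccr6, the receptor of Ccl20 (-0.96 ± 0.15, adjusted p = 0.0263), and 1 of 5 CXC receptors fell, Cxcr6 (-0.15 ± 0.02, adjusted p = 0.0133). Il6st, the shared gp130 chain, rose by 0.85 ± 0.15 (adjusted p = 0.0363) as 1 of 9 genes around gp130. Il4ra, a chain of the interleukin-4 and interleukin-13 receptors, fell by 0.79 ± 0.15 (adjusted p = 0.0453) as 1 of 18 other receptor chains. Of 25 genes of the NF-κB list 0 passed, and of 17 interferon response genes 4 fell, among them the antiviral Bst2 (-1.08 ± 0.12, adjusted p = 0.0133).

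These 4 receptor genes were called in SF against FBS as well: Ccr6 fell by 0.89 ± 0.15 (adjusted p = 0.0184), Il4ra fell by 1.05 ± 0.15 (0.0135), Cxcr6 fell by 0.15 ± 0.02 (0.0077) and Il6st rose by 1.14 ± 0.15 (0.0108). Also called were Ctf1, a gp130 ligand (-0.49 ± 0.06, adjusted p = 0.0093), Il15ra, the Il15 receptor chain (-0.25 ± 0.04, 0.0203), and the cytokine Tslp (0.37 ± 0.07, 0.0310). Of the 25 NF-κB genes 2 rose and 2 fell, with the adhesion molecule Vcam1 at -1.09 ± 0.24 (adjusted p = 0.0405), and of 17 interferon response genes 1 rose and 6 fell. In SF against FBS 11.0% of all genes were called, 5.05% higher and 5.97% lower. These tests share the FBS arrays with the FFV tests. Il33, a nuclear alarmin of the interleukin-1 family that lies outside the 63 genes by its older name, fell by 1.48 ± 0.20 in FFV (adjusted p = 0.0206) and by 2.19 ± 0.20 in SF (adjusted p = 0.00456). Its levels were 7.56 and 7.34 in FFV and 6.80 and 6.69 in SF at 4 and 2 weeks, against 9.39 and 8.47 in FBS.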

How the data were processed

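Each single-colour array gave spot medians as intensity, which per the file headers combine 3 gains and carry no background correction; per the labels' protocols, Cy5 was coupled to amino allyl aRNA amplified from the RNA. The deposited value table holds intensity on a scale its authors did not state: its columns are linear in the spot median after a constant close to the blanks is taken off, and have a median of 25. Its cells near the blanks are empty. No source used here names the scanner software.

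Spots marked as not good (0 to 6 per array) were set to missing. Spot medians were corrected with normexp (offset 50, local surround not subtracted), put on the log2 scale and quantile normalised (R 4.3.3, limma 3.58.1). Of several probes for a gene, the one with the highest mean in the deposited table was used, which affected 1 of the 63 genes (64 probes in all). Well above background means a spot more than 2 SD over the mean of the blanks. That mean was 13.1 to 15.4 on the arrays of GMT iCMs, MEFs and hearts and 39.9 to 41.1 on those of TTFs, GMTMM and MT iCMs. Folds written with at least take the lowest signal well above background as the dim side.

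Medium and time were tested with limma (two-sided, mean-variance trend, additive terms, 2 residual degrees of freedom in GMT iCMs and 3 over the 3 settings) on genes well above background on at least 2 arrays of the fit, adjusted by Benjamini-Hochberg over all genes tested with a threshold of 0.05. An adjusted p in brackets is limma's. Other comparisons have 1 array on at least 1 side and no test: a gene was counted there when every pair was 2-fold or more apart, with the higher array well above background. The fit was tested on simulated data. Marker sums add normalised signal with log2 undone, so dim genes add a constant. Named genes are those called, the 20 with the widest range, a panel of 18, and up to 4 of each list by range. The genes, lists and panel were chosen with earlier results of these data known, and genes named outside this rule were chosen after their values were seen. Alternatives were an offset of 16, scaling by the median, subtraction of the blanks with a floor, local surround subtracted, the value table, the probe choice, no filter on dim genes, no trend, and each array left out.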

Additional observations from a re-analysis of the deposited data

Results flagged for a closer look

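The effect of FFV against FBS was compared between GMTMM and GMT iCMs with an interaction term in limma, chosen after seeing the data. It differed for 12 of 57 genes (21.1%), where 9.63% of all genes were called. The 1 pair of GMTMM arrays is assumed to scatter like the GMT arrays, and the 2 kinds of iCM lie in different array series and come from different fibroblasts. The genes were named because this test called them.

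The effect was more positive in GMTMM iCMs for 5 genes. The difference of effects was 2.21 ± 0.23 (SE) for Il6 (adjusted p 0.00434), 2.01 ± 0.47 for Cxcl12 (0.0481) and 1.87 ± 0.42 for Ccl7 (0.0428). Il6 stood at 1.85 in GMTMM and -0.36 in GMT iCMs, and Ccl7 at 0.92 and -0.95. For Ccl5 the difference was 0.56, and for Il7, a lymphocyte growth factor, it was 0.45.

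The effect was more negative in GMTMM iCMs for 7 genes. The difference was -2.69 ± 0.58 for Ccl9 (adjusted p 0.0378), -1.96 ± 0.11 for Ccl6 (0.000448) and -1.04 ± 0.12 for Il11 (0.00665). For Cxcl7 it was -0.79, for Il7r -0.53, for Il17f -0.34 and for Il1a -0.26. Macrophage marker sums in FFV and FBS were 937 and 6889 in GMTMM iCMs, 917 and 3116 in GMT iCMs at 4 weeks, and 965 and 1254 at 2 weeks, and their part in these differences was not tested.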

How the results depend on the processing

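Calls among the 63 genes depended on the processing, and the cause was not tested. In GMT iCMs, the 3 calls of FFV against FBS and the 8 of SF against FBS became 0 with a floor, the surround subtracted, the value table or no trend, and the 8 became 13 with median scaling. Leaving out 1 array gave 0 to 15 calls in both. For FFV against FBS there were 15 without the FBS array of 2 weeks, 5 without either SF array, 1 without the FFV array of 2 weeks and 0 without that of 4 weeks. For SF against FBS there were 15 without the FBS array of 2 weeks, 5 without that of 4 weeks and 0 without the SF array of 4 weeks. FFV against SF ranged from 0 to 3 (3 without the FBS array of 4 weeks). Over 3 settings FFV against FBS ranged from 0 to 3, with 3 when either or both GMTMM arrays were left out. The 12 calls of the interaction term became 2 with a floor, 4 with the surround subtracted, 3 with the value table and 2 without a trend, and 11 to 16 with 1 array left out. The 11 calls of single genes, each under 14 alternatives, were kept in 86 of 154 cases, lost in 68 and turned in 0.

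Counts of genes at least 2-fold apart mostly grew with a floor or the value table, which compress dim genes less. For GMT iCMs against MEFs, the 0 higher became 1 and 1 in that order. Against the E12 heart, the 1 higher became 2 and 2, and 0 with the surround subtracted, and the 1 lower became 2 and 2, 0 with the surround, 0 with median scaling, 2 with offset 16 and 2 without the FBS array of 4 weeks (range 1 to 2). Against the P1 heart, the 0 higher became 1 and 1, 1 with offset 16 and 1 without the SF array of 4 weeks (range 0 to 1). The 2 lower became 1 and 1, 1 with the surround, 1 with median scaling and 4 without the FBS array of 4 weeks (range 2 to 4). For GMTMM iCMs against TTFs, 1 higher became 7 and 7, and 1 lower 2 and 3, with 2 for both under median scaling, offset 16 or the surround. For GMTMM in FFV against FBS, 2 higher became 5 and 5, and 7 lower 13 and 13, or 3 with the surround. For MT against GMT, 4 higher became 9 with a floor, and 0 lower became 4 and 7. Against GMTMM, 0 higher became 1 and 1, and 7 lower 14 and 14. Against MEFs, 2 higher became 4 with a floor and 1 with the surround, and 10 lower became 19 and 21, or 6 with the surround. For the P1 against the E12 heart, 5 higher became 10 and 9, 3 with median scaling and 2 with the surround, and 1 lower 3 and 3. For MEFs against TTFs, 7 higher became 11 and 12, or 4 with the surround, and 2 lower 5 and 5. Of the 64 such calls under 6 settings, 344 of 384 cases kept the call and 381 the direction. The 3 that turned were Ccl3 with the surround subtracted.

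No paired analysis was possible because the labels give no replicate numbers. The tests compare media within each time and type of iCM, a pairing by condition and not by replicate. Arrays were not left out where a comparison has under 3 pairs, since too few would remain.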
